A study of Gallus gallus with 19 samples.

Results

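Cyclins are proteins that bind cyclin-dependent kinases (CDKs) and switch them on, and their turnover sets the order of the phases of the cell cycle. D-type cyclins work with CDK4 and CDK6 in G1 phase, E-type cyclins with CDK2 at the entry into S phase, A-type cyclins with CDK2 and CDK1 in S and G2 phase, and B-type cyclins with CDK1 in mitosis. The neural plate border (NPB), the strip of ectoderm from which neural crest and placodes arise, is a tissue of dividing progenitor cells at the stage sampled here. The genes described were chosen by name as 10 cyclin and CDK genes: CCND1, CCND2, CCND3, CCNE1, CCNE2, CCNA2, CCNB2, CCNB3, CDK1 and CDK2. Of these, 8 carried that name in the authors' expression table and belonged to the 18996 genes tested, out of 24356 genes counted, while CCNB2 and CCNB3 were not analysed here. The RefSeq gene table gives CCNB2 as a synonym of the chicken gene it calls CCNB1, so CCNB1 is given beside the 8 genes without being counted among them.

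Bulk RNA sequencing was performed on wild type chicken embryos electroporated at the gastrula stage HH4 with a translation blocking morpholino (MO) against Nanog, PouV (the chicken Oct4 homologue, POU5F3) or Klf4, and with a control MO on the contralateral side. Dorsal neural folds at the midbrain level, labelled as neural crest, were collected at HH7/HH8- and pooled over embryos. There were 4 Nanog MO samples (numbered 1 to 4), 3 PouV MO samples (1, 3 and 4), 4 Klf4 MO samples (1 to 4) and 8 control MO samples. The controls belonged to the Nanog experiment (1 to 4), the PouV experiment (1 and 3) and the Klf4 experiment (1 and 3). Knockdown and control samples of the same experiment and number formed 8 pairs: 4 for Nanog, 2 for PouV and 2 for Klf4. Each embryo carried both morpholinos, but the labels give only the number and do not state that samples with the same number came from the same embryos. All samples had been electroporated with a morpholino and an empty carrier vector, so that no untreated tissue was among them. A translation blocking MO does not remove its mRNA, and the mRNA level of its target is therefore no check of the knockdown.

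Total counts per sample ranged from 31215191 to 44726348, with a median of 39160549. The mRNA of the targeted genes did not pass the test in any knockdown. Levels are given in CPM, counts scaled to a common library size after TMM normalization. NANOG averaged 6.39 CPM in Nanog MO samples and 7.99 CPM in controls, POU5F3 1224 CPM in PouV MO samples and 869 CPM in controls, and KLF4 8.06 CPM in Klf4 MO samples and 6.72 CPM in controls. Markers of the NPB and neural crest were all detected, at a mean of at least 1 CPM for each of 13 genes. Calls hung on single samples: 753 genes (3.97%) passed the test after Klf4 knockdown without Klf4 control 3 and 3 with it, and 16 genes (0.0845%) passed after PouV knockdown without PouV MO sample 3 and 126 with it. PouV MO sample 3 also stood farthest from its replicates, with a mean chi-square per gene of 181 and 196 against the other PouV MO samples, where all other pairs of replicates had 21.1 to 73.2. Values without these samples are given beside the larger changes that they move.

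No cyclin or CDK of the 8 passed the test in any knockdown. Each knockdown was compared with all 8 controls in one model with 1 factor of unwanted variation, estimated from the differences among the controls, and a gene was called at an adjusted p under 0.05 over all genes tested (edgeR quasi-likelihood test). The factor ran from 0.29 to 1.94 in the 6 Klf4 experiment samples and from -1.47 to 0.014 in the 8 Nanog experiment samples. In the 5 PouV experiment samples it ran from -0.98 to 0.66. Fold changes against all controls thus include an adjustment that differed between experiments. The called count was 0 of 8 after Nanog knockdown, where 0.258% of all genes were called, 0 of 8 after PouV knockdown, where 0.663% were called, and 0 of 8 after Klf4 knockdown, where 0.0158% were called. At an unadjusted p under 0.05 the counts were 0, 0 and 1 of 8 (CCND3), beside 5.82%, 15.7% and 6% of all genes, and DESeq2 also called 0 in each knockdown, where it called 0.595%, 3.08% and 0.405% of all genes. The median log2 fold change over the 8 genes was -0.058 after Nanog knockdown, 0.0036 after PouV knockdown and -0.038 after Klf4 knockdown, against medians over all genes of 0.0036, -0.00052 and -0.00065. As these are bulk samples, fewer cells that express a gene and less of its RNA per cell cannot be told apart.

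**Figure D1:**
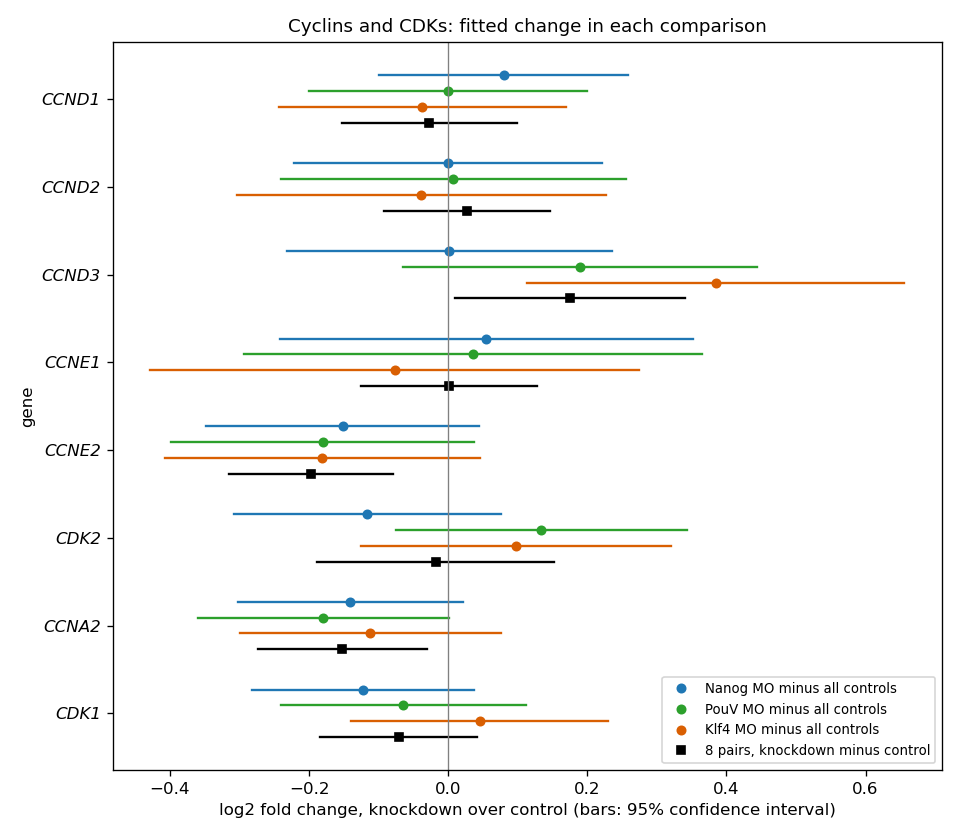
Fitted log2 fold change (horizontal axis) of each of the 8 cyclins and CDKs (vertical axis) after Nanog, PouV and Klf4 knockdown against all 8 controls, and over the 8 pairs. Points and squares are estimates and bars 95% confidence intervals. Only the CCND3 interval after Klf4 knockdown (0.11 to 0.66) and the paired intervals of CCND3, CCNE2 and CCNA2 leave out 0, before any adjustment for the number of genes tested.

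Among the D-type cyclins, which couple growth factor signals to the start of the cycle, CCND1 and CCND2 had fitted fold changes close to 0 in every knockdown. CCND1 had 134, 113, 159 and 99.8 CPM in Nanog MO samples, 100, 123 and 109 CPM in PouV MO samples and 105, 99.4, 79.5 and 83.7 CPM in Klf4 MO samples, against a lowest value of 91.9, a median of 116 and a highest value of 153 CPM in the 8 controls. The groups overlapped. The Klf4 controls, at 93.9 and 91.9 CPM, were the lowest of the 8 controls. Klf4 MO samples 3 and 4, at 79.5 and 83.7 CPM, lay below them. The log2 fold change of CCND1 was 0.080 (95% confidence interval -0.099 to 0.26) after Nanog knockdown, -0.00018 (-0.20 to 0.20) after PouV knockdown and -0.037 (-0.24 to 0.17) after Klf4 knockdown. Its direction after Nanog knockdown turned when only the controls of the same experiment were used, at -0.014. After Klf4 knockdown the value was -0.34 against all controls without the factor of unwanted variation (adjusted p = 0.171), -0.018 against the Klf4 controls alone and -0.15 without Klf4 control 3.

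CCND2 averaged 55.8 ± 7.85 CPM in Nanog MO samples (SD, n = 4), 57.6 ± 5.63 CPM in PouV MO samples (n = 3) and 59.9 ± 8.48 CPM in Klf4 MO samples (n = 4), against 56.5 ± 7.60 CPM in controls (n = 8). These means lay closer together than the replicates of any group. The log2 fold changes were -0.00039 (-0.22 to 0.22), 0.0073 (-0.24 to 0.26) and -0.038 (-0.30 to 0.23) after Nanog, PouV and Klf4 knockdown. Against the Klf4 controls alone the last of these was 0.060.

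CCND3 was the only one of the 8 genes whose samples stood clear of all controls in a knockdown. It had 45.9, 44.1, 60.5 and 41.8 CPM in Klf4 MO samples, against a lowest value of 32.4, a median of 36.7 and a highest value of 40.5 CPM in the 8 controls. All 4 Klf4 MO samples lay above all 8 controls, as did those of 1.33% of all genes. The fitted log2 fold change was 0.38 (standard error 0.130, interval 0.11 to 0.66, unadjusted p = 0.00784), which did not pass after adjustment (adjusted p = 0.540). Without Klf4 control 3, which had 39.9 CPM, it was 0.49 and was called (adjusted p = 0.0283), as were 753 of all genes. With each sample left out in turn it ran from 0.28 to 0.49. Against the Klf4 controls alone it was 0.33 (interval -0.0091 to 0.68).

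In the other knockdowns CCND3 overlapped the controls. PouV MO samples had 36.0, 47.9 and 42.4 CPM, of which the last 2 lay above all controls. The share of all genes with as many such samples was not computed. The log2 fold change after PouV knockdown was 0.19 (-0.065 to 0.44), and ran from 0.092 to 0.29 with each sample left out. Nanog MO samples had 39.1, 36.8, 41.7 and 30.4 CPM, and their log2 fold change of 0.0017 (-0.23 to 0.23) was close to 0. Whether the Klf4 and Nanog effects on CCND3 differ was tested with each knockdown set against its own controls. The difference, Klf4 effect minus Nanog effect, was 0.28 on the log2 scale, with an interval of -0.16 to 0.72 that includes 0.

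The E-type cyclins, which activate CDK2 for DNA replication, had unlike values. CCNE2 had lower means in every knockdown: 47.5 ± 5.67 CPM in Nanog MO samples, 44.9 ± 1.21 CPM in PouV MO samples and 41.6 ± 5.52 CPM in Klf4 MO samples, against 52.0 ± 6.33 CPM in controls (SD, n = 4, 3, 4 and 8). The ranges overlapped, as controls ran from 43.5 to 59.3 CPM. The log2 fold change was -0.15 (-0.35 to 0.045) after Nanog knockdown, -0.18 (-0.40 to 0.038) after PouV knockdown and -0.18 (-0.41 to 0.045) after Klf4 knockdown. None passed the test (adjusted p = 0.944, 0.409 and 0.911), although the means of the PouV and Klf4 MO samples lay farther from the control mean than the SD of the controls.

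CCNE1 averaged 46.3 ± 5.34 CPM in Nanog MO samples, 44.1 ± 9.29 CPM in PouV MO samples and 37.1 ± 4.14 CPM in Klf4 MO samples, against 43.9 ± 10.1 CPM in controls. The controls of one experiment lay farthest apart for PouV, whose 2 controls had 34.6 and 65.4 CPM, the lower of them beside a knockdown side of 35.5 CPM and the higher beside one of 53.9 CPM. The Klf4 experiment was again low on both sides, at 32.2 to 41.7 CPM over its 6 samples. The log2 fold changes were 0.055 (-0.24 to 0.35), 0.036 (-0.29 to 0.36) and -0.077 (-0.43 to 0.27) after Nanog, PouV and Klf4 knockdown. Against the controls of the same experiment, the PouV value was -0.18 and the Klf4 value 0.021, the other way in both.

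CDK2, the kinase partner of the E-type and A-type cyclins, averaged 79.1 ± 7.20 CPM in Nanog MO samples, 90.3 ± 22.0 CPM in PouV MO samples and 77.3 ± 8.61 CPM in Klf4 MO samples, against 84.0 ± 10.7 CPM in controls. PouV MO sample 3 had the highest value of all 19 samples, 115 CPM, and the other PouV MO samples had 82.3 and 73.5 CPM. The 2 Klf4 controls, at 71.0 and 67.3 CPM, were the lowest of the 8 controls. The log2 fold change was -0.12 (-0.31 to 0.076) after Nanog knockdown, 0.13 (-0.075 to 0.34) after PouV knockdown and 0.098 (-0.12 to 0.32) after Klf4 knockdown. The Klf4 value was positive although the mean level was lower than in all controls, and it was -0.12 without the factor of unwanted variation and -0.032 without Klf4 control 3. Without PouV MO sample 3 the PouV value was -0.030, and against the PouV controls alone it was -0.047.

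CCNA2, the A-type cyclin of dividing somatic cells, had the smallest spread of the 8 genes among controls, with an SD of 0.048 on the log2 scale. It had 146, 130, 146 and 151 CPM in Nanog MO samples, 153, 111 and 153 CPM in PouV MO samples and 155, 144, 145 and 141 CPM in Klf4 MO samples, against a lowest value of 149, a median of 158 and a highest value of 166 CPM in the controls. The groups overlapped in each knockdown, and 7 of the 11 knockdown samples lay below the lowest control. The share of all genes with as many such samples was not computed. The log2 fold change was -0.14 (-0.30 to 0.022) after Nanog knockdown, -0.18 (-0.36 to 0.0011) after PouV knockdown and -0.11 (-0.30 to 0.076) after Klf4 knockdown. PouV MO sample 3, at 111 CPM, set much of the PouV value, which was -0.029 without it.

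CDK1, the kinase that drives entry into mitosis, averaged 365 ± 22.0 CPM in Nanog MO samples, 373 ± 11.9 CPM in PouV MO samples and 387 ± 14.3 CPM in Klf4 MO samples, against 394 ± 45.7 CPM in controls. The controls held both the lowest and the highest of the 19 values, 326 CPM in Nanog control 2 and 477 CPM in PouV control 3. Its log2 fold changes were -0.12 (-0.28 to 0.037), -0.064 (-0.24 to 0.11) and 0.045 (-0.14 to 0.23) after Nanog, PouV and Klf4 knockdown. A block for each pair (same experiment and number) left out the samples without a partner. With this block and the factor of unwanted variation together, the Nanog value turned to 0.078 and the Klf4 value to -0.091. With the block and no factor, the Nanog value stayed negative and the Klf4 value was -0.0010. Against all controls without the factor the Klf4 value was also negative, at -0.026. PouV MO samples, at 370, 387 and 364 CPM, all lay below both PouV controls, at 428 and 477 CPM, as did those of 6.81% of all genes, with a log2 fold change of -0.28 against these alone (unadjusted p = 0.0143, adjusted p = 0.991).

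CCNB1, the B-type partner of CDK1, averaged 283 ± 33.7 CPM in Nanog MO samples, 310 ± 22.9 CPM in PouV MO samples and 306 ± 15.4 CPM in Klf4 MO samples, against 318 ± 37.7 CPM in controls. Its log2 fold changes of -0.18, -0.027 and -0.0039 did not pass the test. With the levels of each gene put in order over the 4 groups, the ranges of neighbouring groups overlapped for all 8 genes and for CCNB1. No gene lengths of the counted annotation were used, so levels are not compared between genes.

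**Figure D2:**
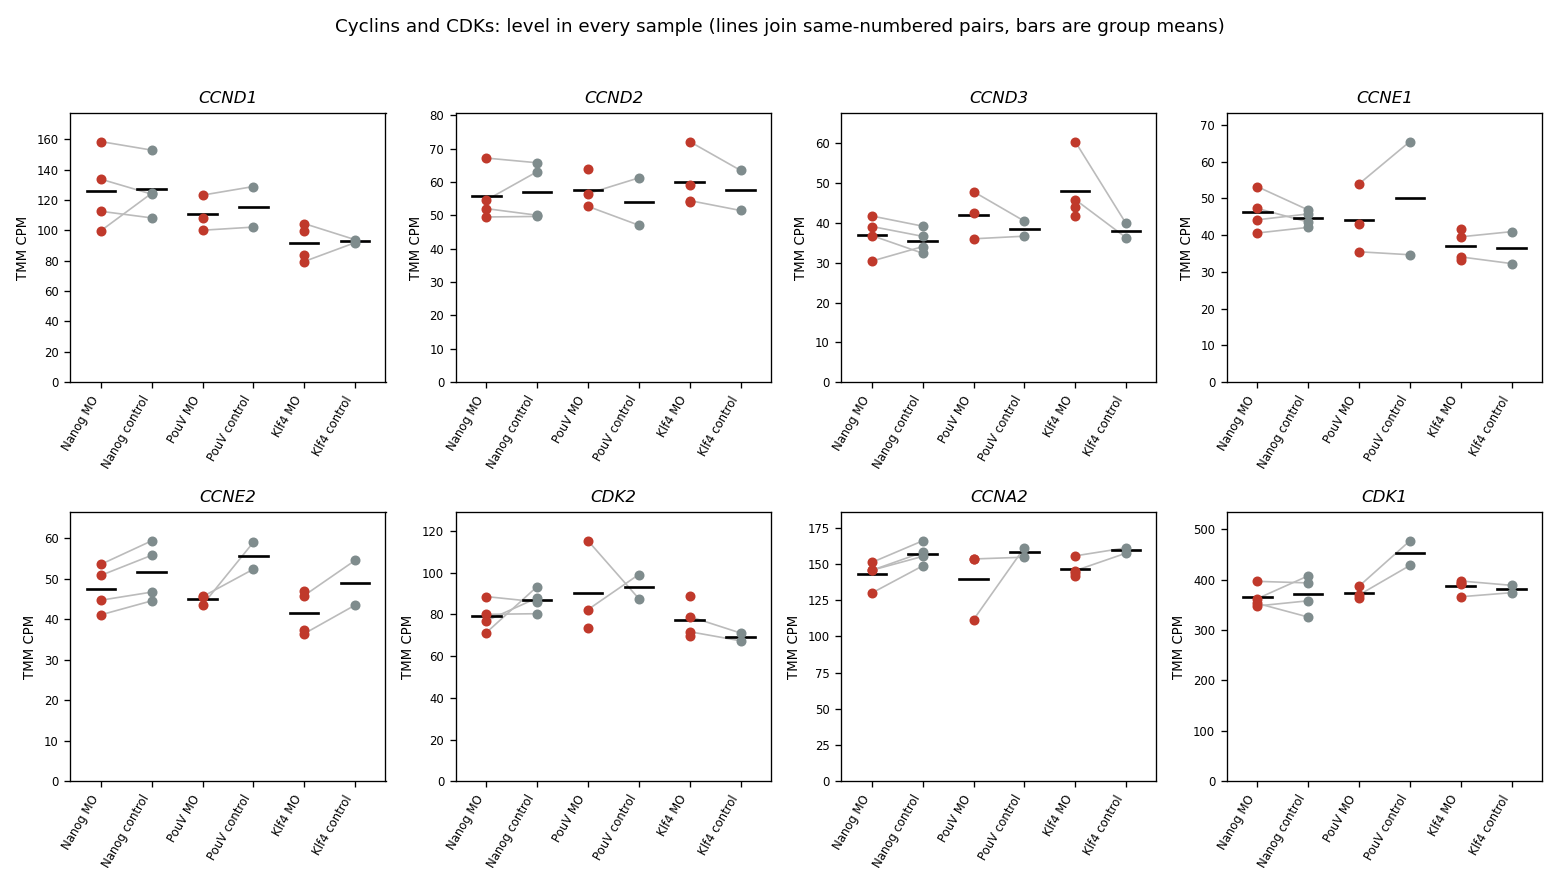
Level of the 8 cyclins and CDKs in TMM-scaled CPM (vertical axis, from 0) in every sample, by knockdown and by the controls of the same experiment (horizontal axis). Points are samples, grey lines join samples of the same number and black bars are group means. The CCNE2 and CCNA2 lines all run down toward the MO side, and the 4 Klf4 MO samples of CCND3 (41.8 to 60.5 CPM) lie above all controls.

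In the pairs each knockdown side was set against the same-numbered control side. The model over all 8 pairs, with a change common to all knockdowns, gave narrower intervals for these genes than each knockdown alone. The samples and the change estimated differed too, so the part of the pairing in this was not tested. CCNE2 was lower on the knockdown side in all 8 pairs. It had 50.8, 41.1, 53.5 and 44.7 CPM in Nanog MO samples, against 55.8, 44.5, 59.3 and 46.7 CPM in the same-numbered controls. In the PouV pairs the values were 45.6 and 43.5 CPM on the knockdown side and 52.3 and 59.0 CPM on the control side, and in the Klf4 pairs 45.8 and 36.4 CPM on the knockdown side and 54.5 and 43.5 CPM on the control side. Its log2 ratios ran from -0.44 to -0.063, with a mean of -0.20 ± 0.117 (SD, n = 8 pairs).

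CCNA2 was also lower on the knockdown side in all 8 pairs. The Nanog MO sides had 146, 130, 146 and 151 CPM, against 155, 149, 158 and 166 CPM on the control sides. The PouV MO sides had 153 and 111 CPM, against 155 and 161 CPM, and the Klf4 MO sides 155 and 145 CPM, against 161 and 157 CPM. PouV pair 3, at a log2 ratio of -0.53, was far below the other 7, which ran from -0.19 to -0.011. Among all genes 2.51% were lower in all 8 pairs, and among genes with a mean of at least 10 CPM 3.93%, beside 2 of these 8 genes.

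CCND3 was higher on the knockdown side in 6 of 8 pairs, with the largest ratios in the Klf4 pairs, where the knockdown sides had 45.9 and 60.5 CPM, against 36.3 and 39.9 CPM on the control sides. The other 5 genes were divided between the directions. CDK1 was lower in 5 pairs, CCND1, CCNE1 and CDK2 in 4 pairs each and CCND2 in 3 pairs. For 5 of the 8 genes the pair ratios varied less between pairs than the control levels did between controls, which CCND1 shows, with an SD of 0.163 for the log2 ratios and 0.253 for the log2 control levels. The control levels include differences between experiments. A ratio within an experiment leaves these out whether or not its sides share embryos. CCND3, CDK2 and CCNA2 varied more between pairs, with SDs of the log2 ratios of 0.233, 0.253 and 0.161.

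In a model with the pair as a block, over the 16 paired samples, no gene of the 8 was called, while 1.53% of all genes were. The unadjusted p was under 0.05 for 3 of the 8, beside 15.2% of all genes. CCNE2 had a log2 fold change of -0.20 (standard error 0.0543, interval -0.31 to -0.079, unadjusted p = 0.00312, adjusted p = 0.0994). DESeq2, with the same terms, gave CCNE2 the same -0.20 and called it (adjusted p = 0.0174), the only call among the 8 genes by that tool, which called 4.84% of all genes there. Without the block, the same 16 samples gave CCNE2 -0.20 (adjusted p = 0.995), where 0.0895% of all genes were called. CCNA2 had -0.15 (interval -0.27 to -0.030, adjusted p = 0.221), which was -0.10 without PouV pair 3. CCND3 had 0.17 (interval 0.0095 to 0.34, adjusted p = 0.301). With each pair left out, CCND3 ran from 0.11 (without Klf4 pair 3) to 0.22 (without Nanog pair 4), and was 0.15 without Klf4 pair 1.

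The intervals of the remaining genes in the paired model are for a change common to all knockdowns. They do not bound the change in a single knockdown, as for CDK2, whose pair ratios ran from -0.39 to 0.40. Without the block the standard errors were larger, at 0.129 against 0.058 for CCND1 and 0.070 against 0.052 for CDK1. CDK1 had a log2 fold change of -0.071 (-0.18 to 0.042), CCND1 -0.027 (-0.15 to 0.098) and CCND2 0.027 (-0.093 to 0.15). CCNE1 had 0.00099 (-0.13 to 0.13) and CDK2 -0.018 (-0.19 to 0.15). CCNB1 had -0.084 (-0.20 to 0.028) and was lower on the knockdown side in 5 of 8 pairs. The median over the 8 genes was -0.023, against 0.0095 over all genes.

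**Figure D3:**
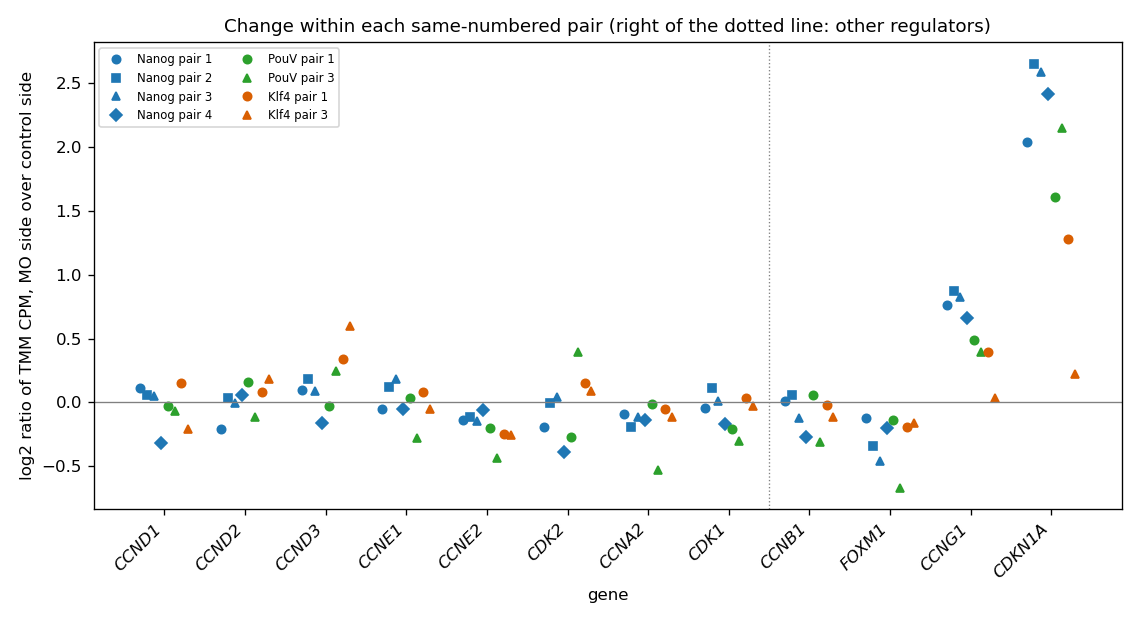
Log2 ratio of TMM-scaled CPM, MO side over control side (vertical axis), in each of the 8 pairs for the 8 cyclins and CDKs and, right of the dotted line, for CCNB1, FOXM1, CCNG1 and CDKN1A (horizontal axis). Colours mark the targeted gene and symbols the replicate number. CCNE2, CCNA2 and FOXM1 lie below 0 in all 8 pairs, and CCNG1 and CDKN1A above 0 in all 8.

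Differences between the knockdowns were tested as the difference of 2 effects, each against the controls of its own experiment. None of the 8 genes was called in the 3 differences, nor was any other gene (0 of 18996 each, with edgeR), and DESeq2 called 0 of the 8 and 0.0158% (PouV minus Nanog), 0% (PouV minus Klf4) and 0.0628% (Klf4 minus Nanog) of all genes. At an unadjusted p under 0.05 there was 1 among the 8 genes, CDK1 in the PouV effect minus the Klf4 effect, at -0.30 on the log2 scale (interval -0.59 to -0.00050), while 2.51% (PouV minus Nanog), 2.66% (PouV minus Klf4) and 2.93% (Klf4 minus Nanog) of all genes passed that threshold. For CDK1 the PouV effect was -0.28 and the Klf4 effect 0.021. The widest interval among the 8 genes was that of CCNE1 in the same difference, -0.83 to 0.43, so that changes of this size between knockdowns could not be told from 0 with these samples.

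Over the 19 samples the 8 genes did not move as a block. The Pearson correlation of log2 CPM between pairs of them ran from -0.51 (CCND2 and CCNE2) to 0.69 (CCND1 and CCNE2), a description over samples that share experiments. Of 12136 named genes with a mean of at least 1 CPM, the gene most like CCND1 was PLAU, a secreted protease (r = 0.94), that most like CCNE1 was GNG13, a G protein subunit (r = 0.93), and that most like CDK2 was TIMM10, a mitochondrial import protein (r = 0.93). CCNE2 was most like ORC1, a subunit of the origin recognition complex (r = 0.86), CCNA2 like TOX3 (r = 0.89), CCND2 like TLNRD1 (r = 0.83), CDK1 like HMGB3 (r = 0.82) and CCND3 like LOC419409 (r = 0.82).

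The genes that act on cyclins and CDKs were described from a list of 92 other regulators, of which 82 were tested. After Nanog knockdown 2 of the 82 were called, both higher, and 0 lower, where 0.258% of all genes were called in either direction. After PouV and after Klf4 knockdown 0 were called by edgeR. DESeq2 called 2 of the 82 after PouV knockdown (CDKN1A and FOXM1), beside 3.08% of the 16418 genes to which it gave an adjusted p. How many of the 82 lacked one is not given here. After Klf4 knockdown DESeq2 called 0. At an unadjusted p under 0.05, 4 of 82 were higher and 7 lower after Nanog knockdown, beside 3.89% and 1.93% of all genes. After PouV knockdown 6 were higher and 4 lower, beside 9.38% and 6.34% of all genes, and after Klf4 knockdown 1 was higher and 5 lower, beside 2.73% and 3.26%. In the paired model 3 of 82 were called, 2 higher and 1 lower, beside 0.721% and 0.805% of all genes. DESeq2 called 7 there, CCNC (0.17, adjusted p = 0.0489), WEE2, E2F1 and MYC beside CDKN1A, CCNG1 and FOXM1, where it called 4.84% of 16418 genes. With edgeR 6 higher and 16 lower had an unadjusted p under 0.05, beside 7.41% and 7.75% of all genes.

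The CDK inhibitor CDKN1A (p21), which binds cyclin-CDK complexes and holds cells in G1 phase, rose after Nanog knockdown and was higher on the knockdown side of every pair. It had 53.8, 40.4, 53.7 and 23.8 CPM in Nanog MO samples, 15.1, 38.9 and 20.7 CPM in PouV MO samples and 26.2, 21.3, 21.2 and 12.7 CPM in Klf4 MO samples, against a lowest value of 4.45, a median of 8.85 and a highest value of 18.1 CPM in the 8 controls. All 4 Nanog MO samples lay above all controls, as in 0.479% of genes, while PouV and Klf4 MO samples overlapped them. The log2 fold change was 2.25 (standard error 0.330, adjusted p = 0.00313) after Nanog knockdown, 1.42 (adjusted p = 0.0731) after PouV knockdown and 0.98 (adjusted p = 0.629) after Klf4 knockdown. In the Klf4 pairs the knockdown sides had 26.2 and 21.2 CPM, against 10.8 and 18.1 CPM on the control sides. The paired model gave 1.88 (standard error 0.230, adjusted p = 0.00368).

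After PouV knockdown CDKN1A was positive in all 28 alternatives and called in 6 of them, among them DESeq2. Another was the pair as a block, at 1.90 (adjusted p = 0.0489), which rested on PouV MO samples 1 and 3 alone. Without PouV MO sample 3 it was 0.87 (adjusted p = 0.711). It passed the test after Klf4 knockdown without Klf4 control 3, at 1.47 (adjusted p = 0.0191), where 3.97% of all genes were called. Of the other CDK inhibitors 4 were tested, and none was called by edgeR in the paired model or in a knockdown. Of these, CDKN2A, CDKN2B and CDKN2C were barely detected, at means of 0.040, 0.042 and 0.091 CPM over all samples. Their lack of a call therefore says little, and only CDKN1B, at 51.6 CPM, was well measured.

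CCNG1, an atypical cyclin without a fixed CDK partner that is a p53 target in mammals, was the only other cyclin or CDK called by edgeR among 32 tested. It rose after Nanog knockdown, with 293, 290, 326 and 229 CPM in Nanog MO samples, against a lowest value of 138, a median of 175 and a highest value of 211 CPM in the 8 controls. These did not overlap, as in 0.479% of all genes. PouV MO samples had 194, 277 and 221 CPM and Klf4 MO samples 243, 189, 181 and 165 CPM, both overlapping the controls. The log2 fold change was 0.71 (standard error 0.122, adjusted p = 0.00956) after Nanog knockdown, 0.44 (adjusted p = 0.135) after PouV knockdown and 0.26 (adjusted p = 0.886) after Klf4 knockdown, and 0.56 (adjusted p = 0.00800) in the paired model, where it was not called without the block (adjusted p = 0.0952). Without Nanog MO sample 1, 2 or 3 the call after Nanog knockdown was lost, at values of 0.70, 0.69 and 0.66 (adjusted p = 0.0505, 0.0586 and 0.0577).

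FOXM1, a transcription factor that activates genes of G2 phase and mitosis, CCNB1 among them in mammals, fell in the paired model. It had 80.7, 80.9, 70.7 and 84.3 CPM in Nanog MO samples, 68.2, 62.5 and 78.2 CPM in PouV MO samples and 79.0, 81.4, 73.6 and 74.2 CPM in Klf4 MO samples, against a lowest value of 75.1, a median of 93.5 and a highest value of 102 CPM in the controls. The groups overlapped, but the knockdown side was the lower one in all 8 pairs. The paired log2 fold change was -0.28 (standard error 0.0642, adjusted p = 0.0491), close to the threshold, and leaving out any of 7 of the 8 pairs ended the call (adjusted p = 0.0642 to 0.154), as did leaving out the block (adjusted p = 0.468). Against all controls the values were -0.21 after Nanog knockdown, -0.39 after PouV knockdown (adjusted p = 0.0819, and -0.31 with 0.541 without PouV MO sample 3) and -0.21 after Klf4 knockdown.

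**Figure D4:**
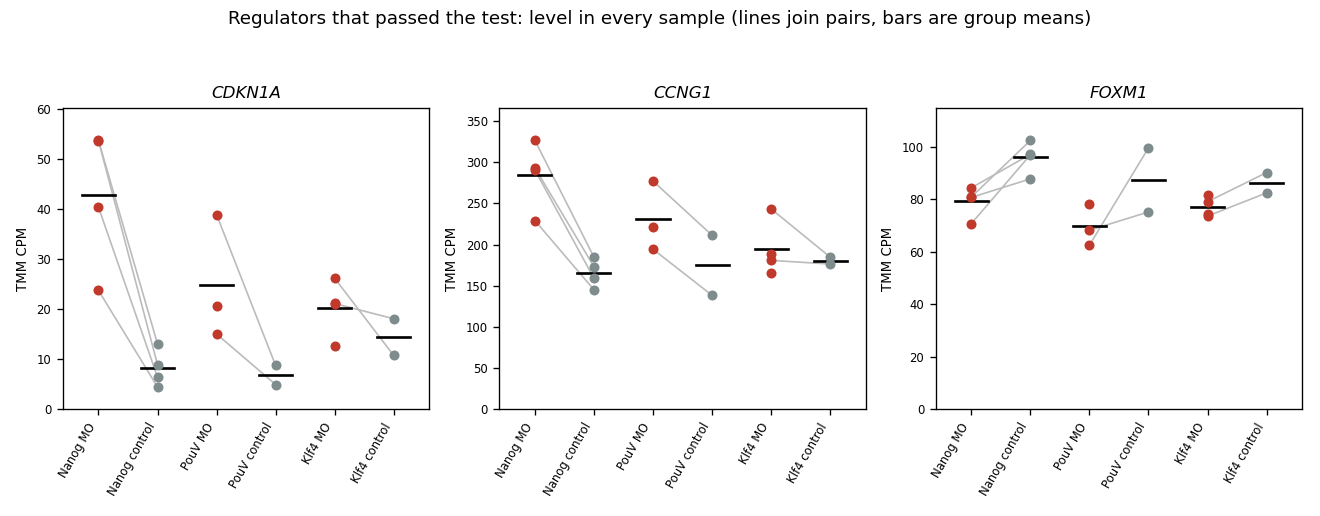
Level of CDKN1A, CCNG1 and FOXM1 in TMM-scaled CPM (vertical axis, from 0) in every sample, by knockdown and by the controls of the same experiment (horizontal axis). Points are samples, grey lines join samples of the same number and black bars are group means. The Nanog MO samples of CDKN1A (23.8 to 53.8 CPM) and CCNG1 (229 to 326 CPM) lie above all controls.

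FOXM1 belonged to a list of RB, E2F, DREAM and MYB-FOXM1 regulators, the proteins that hold back or switch on the transcription of cyclin and replication genes. In the paired model 20 of its 21 tested genes had a negative log2 fold change and 1 a positive one, with a median of -0.11, where 47.5% of all genes were negative. The list was chosen with earlier results of these data known and its genes share the same pairs, so these signs are only a description. The single pairs were less uniform than these signs. E2F8 was lower on the knockdown side in only 4 of 8 pairs, and E2F5, LIN9, LIN52, LIN54 and MYBL1 in 5. MYBL1 had pair ratios from -1.23 to 0.21. PouV pair 3 had the lowest pair ratio of FOXM1 (-0.67), E2F8 (-0.56) and RB1 (-0.45), while E2F5 was lowest in Klf4 pair 3 (-0.46). Without PouV pair 3 FOXM1 was -0.23, and the median of the list without that pair is not given here. edgeR called only FOXM1, and 8 of the 21 had an unadjusted p under 0.05 with a negative value, beside 7.75% of all genes. DESeq2 also called E2F1 and, as the positive one, MYC (0.22, adjusted p = 0.0443). The genes lower in all 8 pairs were E2F1, E2F3, MYBL2 and FOXM1 from this list and WEE1, the kinase that inhibits CDK1, so 5 of 82 (6.10%), beside 2.51% of all genes and 3.93% of genes with a mean of at least 10 CPM, while 2 of 82 (2.44%), CCNG1 and CDKN1A, were higher in all 8, beside 1.73% of all genes. E2F1, which drives S phase genes including E-type cyclins in mammals, had a paired value of -0.19 (adjusted p = 0.102, and 0.0246 with DESeq2). E2F3 had -0.28 (adjusted p = 0.209), with pair ratios from -1.06 to -0.032.

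The other lists were less uniform in the signs of their paired fold changes. Among the 32 other cyclins and CDKs 16 were higher and 16 lower. Of 14 ubiquitin ligase parts, which mark cyclins for destruction, 3 were higher and 11 lower, with 0 called by edgeR or DESeq2. Of 10 kinases, phosphatases and adaptors that act on cyclin-CDK complexes, 3 were higher and 7 lower, with 0 called by edgeR, while DESeq2 called WEE2 (0.89, adjusted p = 0.0322).

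**Figure D5:**
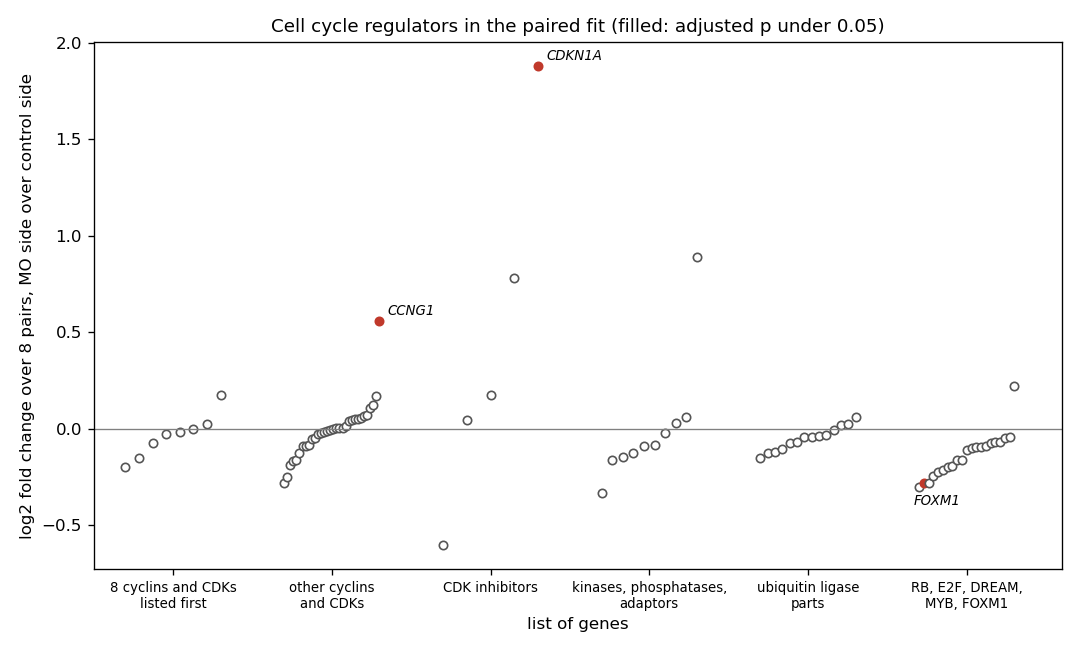
Log2 fold change over the 8 pairs, MO side over control side (vertical axis), of the 8 cyclins and CDKs and of 82 other cell cycle regulators by list (horizontal axis). Each circle is a gene, in order of its value within the list, and filled circles passed an adjusted p of 0.05. CDKN1A (1.88), CCNG1 (0.56) and FOXM1 (-0.28) are filled, and 20 of 21 genes of the RB, E2F, DREAM and MYB-FOXM1 list lie below 0.

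The regulators with the lowest p among those higher or lower in each knockdown, fixed by rule, were mostly short of the threshold. PLK1, a mitotic kinase that activates CDK1 complexes, had 421, 388, 425 and 421 CPM in Nanog MO samples, against 424 to 547 CPM in controls, a log2 fold change of -0.25 (unadjusted p = 0.00373, adjusted p = 0.362). WEE1 had -0.21 after Nanog knockdown (adjusted p = 0.681). E2F8, a repressor among the E2F proteins, had 66.9, 51.2 and 66.0 CPM in PouV MO samples, all below the controls, at 68.2 to 101 CPM, with a log2 fold change of -0.38 (unadjusted p = 0.00733, adjusted p = 0.165), which was -0.26 without PouV MO sample 3 (adjusted p = 0.792). Such a full separation below the controls was seen in 0.848% of genes for PouV.

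After Klf4 knockdown E2F5 had 8.77, 8.77, 7.10 and 8.61 CPM in Klf4 MO samples, all below the controls at 9.78 to 12.3 CPM, as in 1.37% of genes, and a log2 fold change of -0.28 (adjusted p = 0.700). RB1, which encodes the retinoblastoma protein that restrains E2F, had 45.9, 40.2, 33.9 and 37.4 CPM in Klf4 MO samples, against 40.7 to 55.0 CPM in controls, a log2 fold change of -0.29 (adjusted p = 0.709). Without Klf4 control 3, which had the lowest RB1 level of the controls, RB1 was called at -0.46 (adjusted p = 0.0207). WEE2, a WEE1 relative known from oocytes, was barely expressed, at no more than 5.36 CPM in any sample, and had 0.77 after Klf4 knockdown (adjusted p = 0.877). Without Klf4 control 3, whose 3.46 CPM was the highest WEE2 level of the controls, it was called at 2.30 (adjusted p = 0.0169). CDC25B, a phosphatase that activates CDK1, was also called without that sample, at 0.57 (adjusted p = 0.0247), against 0.15 with it. RB1, WEE2, CDC25B and CDKN1A were the 4 other regulators called without Klf4 control 3, where 3.97% of all genes were called.

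Markers of the tissues in the samples differed between the sides as well. In the paired model, where 0.805% of all genes were called lower and 0.721% higher, 4 of 13 NPB and neural crest markers fell (TFAP2B -1.47, PAX7 -0.84, ZIC1 -0.62 and SOX9 -0.53 on the log2 scale), as did 3 of 7 neural plate markers (PAX6 -0.99, SOX1 -0.73 and SOX2 -0.42), whereas EPCAM of 9 non-neural ectoderm markers (0.70) and APOA1 of 10 endoderm markers (0.64) rose. Among the markers not called were 3 of the 13 NPB and neural crest markers with a positive fold change and 3 of the 9 non-neural ectoderm markers with a negative one. The summed level of the NPB and neural crest markers was 587 to 668 CPM in knockdown samples and 534 to 945 CPM in controls, and that of the neural plate markers 184 to 746 CPM in knockdown samples and 247 to 1009 CPM in controls. The medians of the other summed lists were higher in the knockdown samples, with ranges that overlapped. Non-neural ectoderm markers summed to 1222 to 2413 CPM in knockdown samples and 864 to 1875 CPM in controls, and mesoderm markers to 494 to 945 CPM in knockdown samples and 449 to 669 CPM in controls. Endoderm markers summed to 448 to 1566 CPM in knockdown samples and 238 to 1294 CPM in controls. The 4 measured of 7 blood and endothelium markers summed to 191 to 472 CPM in knockdown samples and 193 to 468 CPM in controls. Of the mesoderm markers, MSGN1 was under 1 CPM on both sides and MESP1 in controls. The part of these shifts in the levels of the cyclins, CDKs and their regulators was not tested.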

How the data were processed

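The authors aligned reads with STAR (version 2.7.2a and build GRCg6a in the submitters' processing notes) and deposited raw counts per gene, the same counts cut down to the 18996 genes that exceeded 5 reads in a sample, and a signal table of TMM-scaled CPM, whose values for the 8 genes differed from those computed here by at most 5.0e-13 percent. Strand handling is not given in the sources used here. Gene names came from the authors' table for 12495 genes and from a RefSeq gene table for 1808. The sources differ on how many embryos were pooled per sample.

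Raw counts were tested in edgeR 4.0.16 (R 4.3.3, limma 3.58.1; quasi-likelihood test, TMM, Benjamini-Hochberg adjustment) over all 19 samples with 4 groups and 1 factor of unwanted variation, computed after the RUVs method with the controls as replicate set and the 1000 genes of lowest coefficient of variation. The paired model held pair and knockdown over 16 samples, and differences of effects used 6 groups without the factor. The study's methods used DESeq2, which served here as an alternative (version 1.42.0). Its shares of all genes are of those to which it gave an adjusted p. These were 16418 after PouV knockdown and in the paired model, 17520 in the Klf4 minus Nanog difference and 18994 in the PouV differences. Confidence intervals are at 95%, unadjusted. The procedure was tested on simulated data. The changed genes were drawn from those with a mean of at least 10 CPM. The procedure called 0% of genes changed by 0.3 on the log2 scale in each knockdown against all controls, and 90% to 95.5% of those changed by 1. The simulated samples held no differences between experiments and none shared by a pair. The simulated spread of each gene came from a model without the factor, where differences between experiments counted as spread. The simulated samples therefore describe the fit against all controls, which held the factor, only roughly. They do not describe the paired model, for which only the intervals are given. Against all controls, the lack of calls among the cyclins and CDKs cannot exclude changes of the smaller size. No 2 samples of a group were as alike as sampling noise alone would make them.

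The electroporation was bilateral, but the labels do not state that same-numbered sides share embryos. Their deviations from the means of each knockdown group and of all 8 controls together correlated at -0.089 to 0.69 over 13781 genes (median 0.55, 7 of 8 pairs over 0.1). The deviations of the controls thus include differences between experiments. Values for sides of unlike number are not given, so these correlations do not show that same-numbered sides share embryos. The alternatives were the number of factors, size factors, DESeq2, gene filters, own-experiment controls, the replicate block and each sample or pair left out. The replicate block was the pair, experiment and number together. In fits of single knockdowns it was added to the factor of unwanted variation unless stated otherwise. Knockdown samples without a same-numbered control of their experiment had no part in fits with the block. Those for other regulators in the paired model and for CCNG1, CDKN1A and FOXM1 were added after seeing the data. The members and lists were chosen with earlier results of these data known. Named were the members, the targeted genes, every called regulator, the 2 regulators of lowest p in each direction per knockdown and the most similar gene of each member. CCNB1, CCNC, CDC25B, MYC, MYCN, CCND3 without Klf4 control 3, E2F1, E2F3, MYBL2, the other CDK inhibitors and the called markers were named after their values were seen.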

Additional observations from a re-analysis of the deposited data

Results flagged for a closer look

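CCNE1 in PouV control 3 stood apart from the other controls. It had 65.4 CPM, while the other 7 controls had 32.2 to 46.8 CPM, and its distance to the nearest of them was 0.561 of the whole range, above the 95% critical value of Dixon's test for 8 samples. It was the only such sample among 32 groups of values examined, where chance gives about 1 in 20 groups. The knockdown sample of the same number, PouV MO sample 3, had 53.9 CPM, the highest CCNE1 level of the 11 knockdown samples. The cause was not tested.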

How the results depend on the processing

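The count of 0 called among the 8 cyclins and CDKs changed in 2 settings: it was 1 in the paired model with DESeq2 (CCNE2) and 0 to 1 over the fits that left out each sample in the Klf4 comparison (CCND3, called without Klf4 control 3). CCNE2 and CCNA2 kept their negative direction in every alternative, in each knockdown and in the paired model. Without the replicate block, the paired samples gave CCNE2 -0.20 (adjusted p = 0.995), CCNG1 0.57 (adjusted p = 0.0952), FOXM1 -0.28 (adjusted p = 0.468) and CDKN1A 1.86 (adjusted p = 0.0219), and of these only CDKN1A was called. The deviations of 1 pair, Nanog 4, correlated at -0.089, and without it CCNE2 was -0.22 (adjusted p = 0.0987).

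Counts of other regulators called moved more. After PouV knockdown 2 were called with DESeq2, 1 with the replicate block (CDKN1A) and 1 with that block when the RUVs factor was dropped (CDKN1A), and 0 to 3 with each sample left out. After Nanog knockdown the count was 3 with the block and no factor, where MYCN (-0.57, adjusted p = 0.0347) was added, and 1 to 2, and after Klf4 knockdown 0 to 4, with each sample left out. In the paired model it was 1 with no replicate block and 7 with DESeq2. The numbers of all genes called moved too. After Klf4 knockdown 3 were called, against 440 with no RUVs factor, 77 with DESeq2, 11 with a filter of 1 CPM in 3 samples, 0 with own-experiment controls and 0 to 753 with each sample left out. After PouV knockdown 126 were called, against 63 with no RUVs factor, 506 with DESeq2, 0 with own-experiment controls, 15 with the replicate block, 73 with the block and no factor, and 16 to 501 with each sample left out. After Nanog knockdown 49 were called, against 26 with no RUVs factor, 113 with DESeq2, 275 with the block and no factor, and 25 to 60 with each sample left out. The paired model called 290, against 17 with no replicate block, 795 with DESeq2 and 73 to 276 with each pair left out.

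Fold changes near 0 turned direction, none of them called. After Nanog knockdown, CCND1 was -0.014 with own-experiment controls and -0.017 with the replicate block but without the RUVs factor, CCND2 0.0025 with the 1 CPM filter, CCND3 -0.0026 with 2 RUVs factors and CDK1 0.078 with the replicate block. After PouV knockdown, CCND1 was 0.0039 with 2 RUVs factors, 0.0034 with RLE size factors, 0.0033 with DESeq2, 0.028 with no count filter, 0.021 with the 1 CPM filter and 0.029 with the replicate block. CCND2 was -0.0069 with no count filter, and CCNE1 -0.18 with own-experiment controls, -0.090 with the replicate block and -0.12 with the block and no factor. CDK2 was -0.047 with own-experiment controls. After Klf4 knockdown, with no RUVs factor, CCND2 was 0.085, CDK2 -0.12 and CDK1 -0.026. With own-experiment controls, CCND2 was 0.060 and CCNE1 0.021. With the replicate block, CCND2 was 0.16 and CDK1 -0.091, and with the block and no factor CCND2 was 0.13, CCNE1 0.013 and CDK1 -0.0010. In the paired model CCNE1 was -0.0091 with no replicate block, -0.00019 with RLE size factors and -0.00030 with DESeq2.

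With each sample left out, values after Nanog knockdown ran from -0.091 to 0.041 for CCND2 and from -0.060 to 0.089 for CCND3. After PouV knockdown they ran from -0.062 to 0.086 for CCND1, from -0.040 to 0.065 for CCND2, from -0.085 to 0.18 for CCNE1 and from -0.030 to 0.22 for CDK2. After Klf4 knockdown they ran from -0.10 to 0.063 for CCND2, from -0.21 to 0.013 for CCNE1 and from -0.032 to 0.13 for CDK2. In the paired model, with each pair left out, CCND1 ran from -0.053 to 0.013, CCNE1 from -0.029 to 0.036 and CDK2 from -0.083 to 0.033. The causes were not tested. Counts of the 8 genes were at least 1032 per sample, and PouV and Klf4 had 2 pairs each. What set the width of the intervals was not tested.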
